A study of Mus musculus with 16 samples.

Results

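The 9 genes described here, Acta2, Actg2, Tagln, Cnn1, Myl9, Tpm2, Myh11, Cald1 and Des, encode the contractile and cytoskeletal proteins by which smooth muscle cells and activated fibroblasts are usually recognised. The members were chosen by name, as every probe whose gene name in the array files equals 1 of these symbols. They were read by 16 of the 41174 probes on each of 16 mouse arrays, and 15 of these were tested, being among the 31415 probes that exceeded background clearly on 1 array or more. The remaining probe, 1 of 5 for Acta2, was not well above background on any array. Where a gene had several probes, the one with the highest average over the 16 arrays is given as its level, and all 9 of these probes were well above background on 16 of 16 arrays.

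In contractile cells, actin filaments slide along filaments of myosin, and the pull is switched on when the myosin regulatory light chain is phosphorylated. Transgelin, calponin, caldesmon and tropomyosin lie along the actin filament and set how it meets myosin, and desmin forms the intermediate filaments that tie the contractile units together. Many of these genes are driven by serum response factor (SRF), which binds a promoter element known as the CArG box together with cofactors of the myocardin family, and they respond to actin dynamics and to TGF-β. Embryonic fibroblasts in culture carry stress fibres and express much of this set, whereas pluripotent stem cells are compact epithelial cells, in which the set is usually low.

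The study compared mouse embryonic fibroblasts (MEF, 1 array, C57BL/6) and embryonic stem (ES) cells with iPS cells made from MEFs by human artificial chromosome vectors. According to the methods, microRNA mimics were also transfected into these MEFs after transfer of the vector. The ES lines were B6ES (C57BL/6) and TT2 (C57BL/6 x CBA), and the iPS line 20D17 (C57BL/6 x DBA) was made with retrovirus vectors. The clones 1-A3, 1-B, 1-C3 and 1-D6 (iHAC1-iPS) carried iHAC1, with 2 copies each of Klf4, c-Myc, Sox2 and Oct4 under the CAG promoter. The clones 2-B1, 2-C6, 2-E and 2-N (iHAC2-iPS) carried iHAC2, which adds a p53 knockdown and 2 more copies of Oct4, and the iHAC-free iPS lines had lost iHAC2, with F-B1 derived from 2-B1, F-C5 from 2-C6, F-E4 from 2-E and F-N7 from 2-N. All iHAC lines were C57BL/6, each array is 1 clone or line, and MEF and 20D17 have no replicate. ES cells and microcell hybrid clones were grown on feeder layers of mitomycin C-treated ICR MEFs according to the methods, and whether feeder cells were removed before RNA was taken is not given in the sources used here. In such bulk RNA, a smaller number of cells of a type cannot be told apart from less RNA per cell, so a level may come from the iPS or ES cells, from feeder cells or from differentiated cells.

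Of the spots of an array, 54.2% to 65.8% exceeded background clearly, and no spot was saturated. There were 4 slides and 2 scan sessions. Slide 1 held MEF, 1-A3, 1-B and 1-C3, slide 2 held B6ES, TT2, 20D17 and 1-D6, and slides 3 and 4, read in the second session, held the iHAC2-iPS and iHAC-free iPS arrays. Scan session and group therefore cannot be told apart when iHAC2-iPS or iHAC-free iPS cells are set against ES or iHAC1-iPS cells. The iHAC1-iPS clones also stood apart from the ES lines, as 7 of 10 pluripotency markers and 7 of 7 epithelial markers fell. A further pluripotency marker, Pou5f1 (Oct4), rose, with log2 levels of 6.38 to 6.74 beside 3.58 in B6ES and 4.05 in TT2. It was at 2.47 to 2.83 in the iHAC-free iPS lines. The iHAC1 vector carries Oct4, and how far this probe reads the vector's cDNA is not given in the sources used here. Of all probes tested, 14.3% were called between iHAC1-iPS and ES cells, by the limits given below.

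The position of a probe shows which stretch of the actin message was read. The best-measured Acta2 probe, at chr19:34316060-34316119 of mm9, starts at base 1241 of its transcript. A further Acta2 probe, which crosses exon junctions (chr19:34322995-34326249), starts at base 298 of its transcript and reads the following sequence, 5′ to 3′. Actin coding sequences are very alike among the actin genes, so signal from other actins at such a probe cannot be told apart from that of the named gene.
Acta2 probe: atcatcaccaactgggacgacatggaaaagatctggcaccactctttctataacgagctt

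RefSeq promoter windows (GRCm38.p6) of 250 bases before and 50 bases after the start were given for 6 of the 9 members, and the windows of Actg2, Tagln and Myh11 were not given. They are shown for Acta2 and Myl9, because those were the members whose windows held a CArG box or a CArG box with 1 of its middle bases other than A or T. Both strands were searched. The capitals mark these elements and, in Acta2, the MCAT element (CATTCC, or GGAATG on the other strand), a site known for transcription factors of the TEAD family. The bases before the start are at chr19:34255374-34255623 (minus strand) for Acta2 and chr2:156775214-156775463 (plus strand) for Myl9.
Acta2 promoter: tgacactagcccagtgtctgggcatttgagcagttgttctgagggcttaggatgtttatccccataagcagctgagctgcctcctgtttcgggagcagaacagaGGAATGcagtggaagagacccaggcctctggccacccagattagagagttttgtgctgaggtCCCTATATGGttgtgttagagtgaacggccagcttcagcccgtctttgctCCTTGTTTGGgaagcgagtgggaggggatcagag
Myl9 promoter: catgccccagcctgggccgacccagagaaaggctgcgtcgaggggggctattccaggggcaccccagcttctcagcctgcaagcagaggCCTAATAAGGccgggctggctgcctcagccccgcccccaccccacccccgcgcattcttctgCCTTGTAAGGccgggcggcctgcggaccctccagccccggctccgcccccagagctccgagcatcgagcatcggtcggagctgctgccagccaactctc
The full CArG box stood in Myl9, 161 bases before the start, and in 1.63% of all 32851 mouse promoter windows. The form with 1 change stood in Acta2, 84 and 34 bases before the start, in Myl9, 99 bases before it, and in 8.50% of all windows. MCAT was found in Acta2, 146 bases before the start, in Cald1, 153 bases before it, and in 14.7% of all windows. A match describes the letters of the window, and no match says only that these letters are not in it.

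Levels are log2 of the signal relative to the 75th percentile of all probes on the same array, so a difference of 1 is a 2-fold difference. Values of different genes come from different probes and are not compared. Over the 16 arrays, 7 of the 9 members were highest in MEF, and Cnn1 and Tpm2 were highest in 20D17. The iPS and ES groups mostly overlapped. By the mean of the members other than Des, the retroviral line 20D17 and the iHAC1-iPS clone 1-D6 lay nearest to MEF. This did not hold for every member, and in Des 1-D6 was among the lowest arrays.

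**Figure D1:**
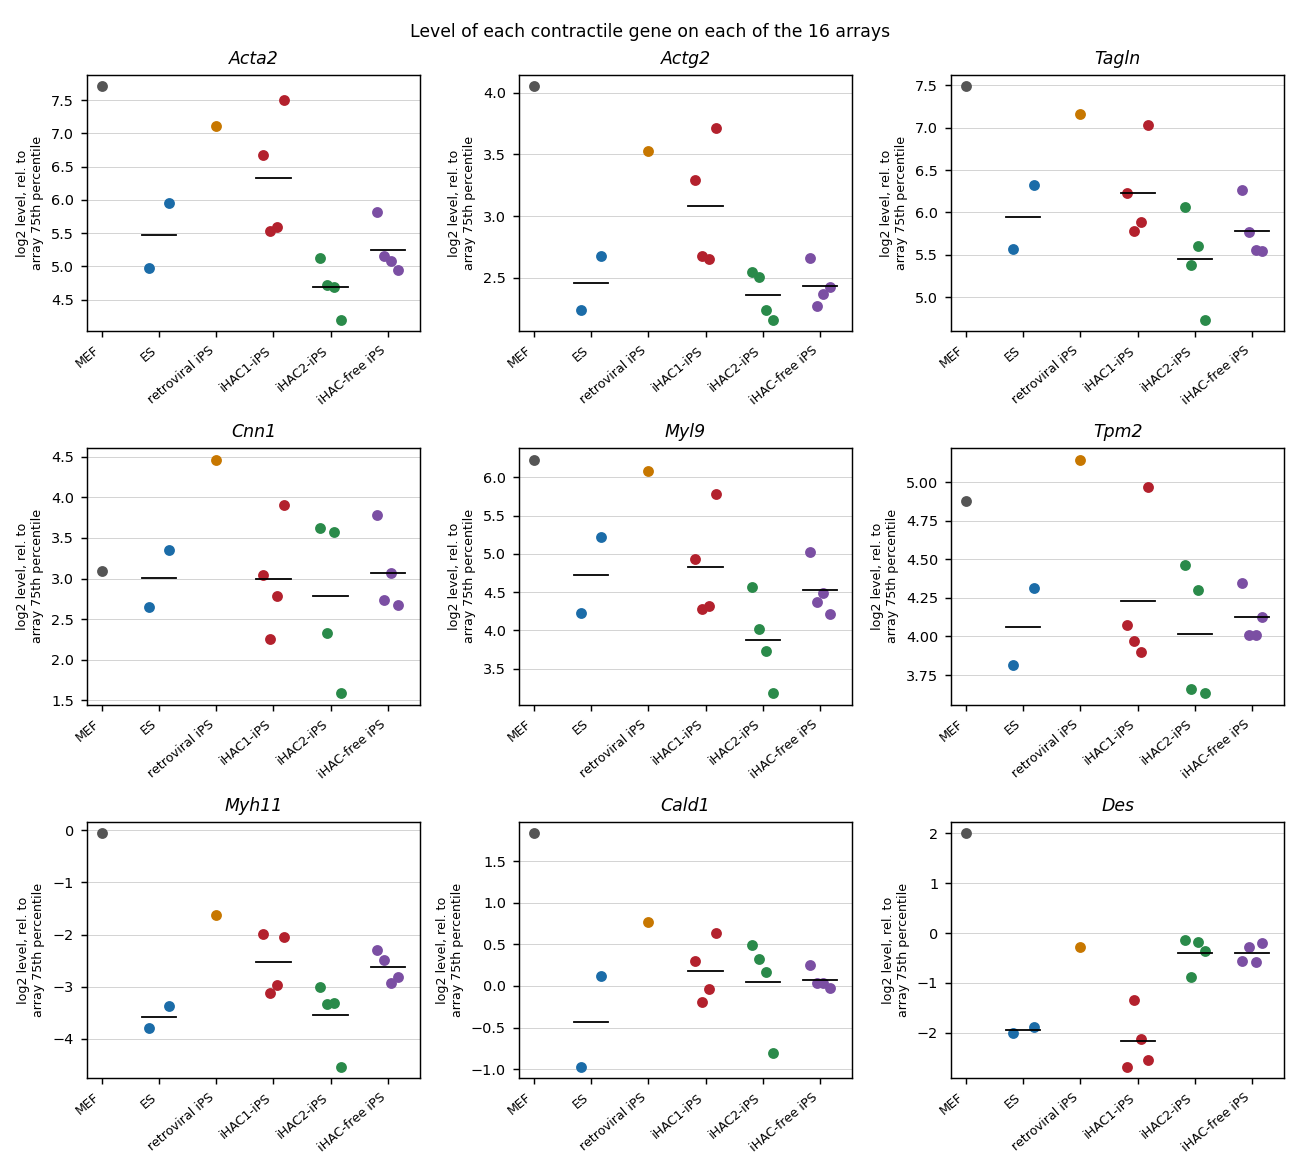
Log2 level of each of the 9 genes (y axis, relative to the 75th percentile of the array) on each array, by group (x axis). Each point is 1 array and the black line is the mean of a group with more than 1 array, and Des is the member in which the 8 iHAC2-iPS and iHAC-free iPS arrays lie above both ES lines and all 4 iHAC1-iPS clones.

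Acta2 encodes smooth muscle α-actin, the actin of smooth muscle and of stress fibres in myofibroblasts. Its level was 7.71 in MEF, 4.98 in B6ES, 5.96 in TT2 and 7.11 in 20D17. In iHAC1-iPS clones it was 6.68 (1-A3), 5.53 (1-B), 5.59 (1-C3) and 7.50 (1-D6), and with iHAC2 present 5.12 (2-B1), 4.72 (2-C6), 4.69 (2-E) and 4.20 (2-N). The iHAC1-iPS clones all lay above the iHAC2-iPS clones, and 1-D6 was close to MEF. After loss of iHAC2 it was 5.83 in F-B1, 5.15 in F-C5, 5.08 in F-E4 and 4.94 in F-N7, a range that overlapped that of the iHAC1-iPS clones and the ES lines. The mean was 6.33 ± 0.947 (SD, n = 4) in iHAC1-iPS and 4.68 ± 0.377 (SD, n = 4) in iHAC2-iPS, a difference of 1.64 (SE 0.42, 3.12-fold), and Acta2 was higher in iHAC1-iPS by limma with an adjusted p of 0.00996 (Benjamini-Hochberg over all 31415 probes). It stayed called under each other setting tried and without each of the 8 arrays in turn, where the difference ranged from 1.25, without 1-D6, to 1.91, without 1-B. No slide held both of these groups, so the slide block is no check on slides here.

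The probes of Acta2 differed in the size of this difference but not in its sign. Between iHAC1-iPS and iHAC2-iPS it was 1.80 for the probe at chr19:34315697-34315756 (mm9) and 1.44 for the probe at chr19:34315196-34315254, both called. The latter is assigned to another transcript than the other tested Acta2 probes. It was dim, and well above background on only 2 of the 4 iHAC2-iPS arrays. It was 0.67 for the junction-spanning probe printed above, whose adjusted p of 0.0251 (limma, Benjamini-Hochberg) passed while the 2-fold limit did not. Set against ES cells, Acta2 differed by 0.86 in iHAC1-iPS (95% confidence interval -0.26 to 1.97), by -0.79 in iHAC2-iPS and by -0.22 in iHAC-free iPS on the log2 scale, and none of these passed. Within slide 2, which held both ES lines and 1-D6, the difference of 1-D6 from the ES lines was 2.04. Acta2 was 1.08 higher in iHAC1-iPS than in iHAC-free iPS with an adjusted p of 0.0616 (limma, Benjamini-Hochberg), which did not pass, and it was called without 1-B (0.0293), 1-C3 (0.0356) or F-B1 (0.0494).

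Actg2 encodes smooth muscle γ-actin, the actin of the gut wall. Its level was 4.05 in MEF, 2.24 in B6ES, 2.68 in TT2 and 3.53 in 20D17. It was 3.29, 2.67, 2.65 and 3.72 in 1-A3, 1-B, 1-C3 and 1-D6, and 2.55, 2.51, 2.23 and 2.16 in 2-B1, 2-C6, 2-E and 2-N. The 2 ranges did not overlap, and again 1-D6 was the highest iPS clone carrying an iHAC. In the derived lines, in the order of their parents, it was 2.66, 2.27, 2.37 and 2.43. Actg2 differed by 0.72 (SE 0.23) between iHAC1-iPS and iHAC2-iPS and by 0.65 (SE 0.23) between iHAC1-iPS and iHAC-free iPS, with adjusted p of 0.0276 and 0.0416 (limma, Benjamini-Hochberg), below 2-fold in both cases and so not called.

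Among the proteins that bind the actin filament, Tagln encodes transgelin (SM22α), an actin-bundling protein. Its level was 7.49 in MEF, 5.56 in B6ES, 6.32 in TT2 and 7.16 in 20D17. It was 6.23, 5.79, 5.88 and 7.03 in 1-A3, 1-B, 1-C3 and 1-D6, 6.06, 5.38, 5.61 and 4.73 in 2-B1, 2-C6, 2-E and 2-N, and 6.26, 5.77, 5.55 and 5.55 in their derived lines in the same order. All 3 iPS groups overlapped each other and the ES lines. The largest group difference for Tagln, 0.79 (SE 0.33) between iHAC1-iPS and iHAC2-iPS, had an adjusted p of 0.0797 (limma, Benjamini-Hochberg) and did not pass.

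Cnn1 encodes calponin 1, which inhibits the myosin ATPase on actin and marks mature smooth muscle. Its level was 3.09 in MEF, within the range of the ES lines (2.65 in B6ES and 3.35 in TT2), and 4.46 in 20D17, the highest of all arrays. It was 3.04, 2.25, 2.78 and 3.90 in 1-A3, 1-B, 1-C3 and 1-D6, 3.62, 2.33, 3.58 and 1.59 in 2-B1, 2-C6, 2-E and 2-N, and 3.78, 2.73, 3.07 and 2.68 in their derived lines in the same order. Cnn1 spread more widely within the iHAC2-iPS group (SD 0.995, n = 4) than between any pair of group means among ES and iPS groups with replicates, and no difference passed.

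Tpm2 encodes β-tropomyosin, which lies along the actin groove. Its level was 4.88 in MEF, 3.81 in B6ES, 4.31 in TT2 and 5.15 in 20D17. It was 4.08, 3.97, 3.90 and 4.97 in 1-A3, 1-B, 1-C3 and 1-D6, so that 1-D6 stood apart from the other iHAC1-iPS clones. The iHAC2-iPS clones ranged from 3.63 to 4.46 and the iHAC-free iPS lines from 4.01 to 4.35, and no group difference exceeded 0.22. The second Tpm2 probe gave 4.56 in MEF, 4.66 in 20D17 and 4.40 in 1-D6, and 3.21 to 3.99 on the other arrays.

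Cald1 encodes caldesmon, which holds back the actin-myosin contact. Its level was 1.84 in MEF, -0.97 in B6ES, 0.11 in TT2 and 0.77 in 20D17, so the ES lines differed by 1.09 between themselves. The iHAC1-iPS clones ranged from -0.20 to 0.64, the iHAC2-iPS clones from -0.80 in 2-N to 0.49 in 2-B1, and the iHAC-free iPS lines from -0.03 to 0.25. The iPS group means lay 0.47 to 0.60 above the ES mean, and none of these differences passed.

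Myl9 encodes the regulatory light chain of smooth muscle myosin, the switch of contraction. Its level was 6.23 in MEF, 4.23 in B6ES, 5.23 in TT2 and 6.08 in 20D17. It was 4.93, 4.27, 4.32 and 5.79 in 1-A3, 1-B, 1-C3 and 1-D6, 4.57, 4.02, 3.74 and 3.18 in 2-B1, 2-C6, 2-E and 2-N, and 5.03, 4.38, 4.49 and 4.22 in their derived lines in the same order. The iHAC2-iPS clones held the lowest values but overlapped every other replicated group. Myl9 was 0.95 higher in iHAC1-iPS than in iHAC2-iPS (SE 0.38), with an adjusted p of 0.0683 (limma, Benjamini-Hochberg), which did not pass, while without 1-B or 2-B1 it was called with an adjusted p of 0.0491 or 0.0376.

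Myh11 encodes the smooth muscle myosin heavy chain, held to be the most specific protein of that cell type. Its level was -0.06 in MEF, -3.79 in B6ES, -3.38 in TT2 and -1.62 in 20D17. It was -1.99, -3.12, -2.97 and -2.04 in 1-A3, 1-B, 1-C3 and 1-D6, -3.01, -3.33, -3.32 and -4.54 in 2-B1, 2-C6, 2-E and 2-N, and -2.29, -2.50, -2.94 and -2.80 in their derived lines in the same order. MEF stood above every other array, and all 4 iHAC1-iPS clones and all 4 iHAC-free iPS lines lay above both ES lines. The difference of 1.02 between iHAC1-iPS and iHAC2-iPS (SE 0.35, 2.03-fold) passed with an adjusted p of 0.0377 (limma, Benjamini-Hochberg), although 1-B lay below 2-B1. This call depends on single arrays, since the adjusted p was 0.102 without 1-A3, 0.107 without 1-D6, 0.0512 without 2-E and 0.0925 without 2-N, where the difference was 0.69. With normexp background correction the difference was 0.53, below 2-fold, and it was 0.99 with the slide as a block, also below 2-fold, while in a fit of these 2 groups alone the adjusted p was 0.0954.

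Relative to the ES mean, the Myh11 differences of 1.06 for iHAC1-iPS and 0.95 for iHAC-free iPS had adjusted p of 0.100 and 0.236 (limma, Benjamini-Hochberg), neither of which passed, and within slide 2 the difference of 1-D6 from the ES lines was 1.55. The difference of iHAC2-iPS minus iHAC-free iPS was -0.92, with an adjusted p of 0.204.

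Des encodes desmin, the intermediate filament protein of muscle of every kind and of some pericytes, and it followed another order than the rest. Its level was 2.00 in MEF, -2.01 in B6ES, -1.89 in TT2 and -0.28 in 20D17. It was -2.68, -1.34, -2.12 and -2.54 in 1-A3, 1-B, 1-C3 and 1-D6, -0.14, -0.88, -0.19 and -0.37 in 2-B1, 2-C6, 2-E and 2-N, and -0.55, -0.28, -0.59 and -0.20 in their derived lines in the same order. All 8 iHAC2-iPS and iHAC-free iPS arrays lay above all 4 iHAC1-iPS clones and both ES lines, and 1-D6, near MEF for most other members, was among the lowest with 1-A3.

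Des was 1.78 lower in iHAC1-iPS than in iHAC2-iPS (SE 0.27, 3.43-fold, adjusted p 0.000604, limma with Benjamini-Hochberg). It was 1.77 lower in iHAC1-iPS than in iHAC-free iPS (SE 0.27, 3.40-fold), with an adjusted p of 0.000478. Both calls held under each other setting tried and without each array in turn. No slide held iHAC1-iPS with iHAC2-iPS or iHAC-free iPS arrays, so the slide block is no check on slides here. Des exceeded its ES mean by 1.56 in iHAC2-iPS (SE 0.33, 2.94-fold, adjusted p 0.0166), and the adjusted p was 0.106 without B6ES, 0.0894 without TT2 and 0.113 in a fit of the 2 groups alone. Against ES cells, iHAC-free iPS lines were 1.55 higher (SE 0.33), with an adjusted p of 0.0630 (limma, Benjamini-Hochberg) that did not pass. It was 0.0238 to 0.0455 under normexp, a strict filter on dim probes or the slide as a block. No slide held both groups, so that block was random, with a within-slide correlation of -0.1185, and cannot take out a difference between slides. The iHAC2-iPS and iHAC-free iPS groups differed by 0.01 (95% confidence interval -0.57 to 0.60). The scan session divides the iPS and ES arrays in the same way, except that 20D17, read in the first session, had a Des level in the range of the second, and session and group cannot be told apart here.

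The comparisons across all probes put these calls beside their background, in which a call needs both an adjusted p under 0.05 (limma, Benjamini-Hochberg) and a change of 2-fold or more. Between iHAC1-iPS and iHAC2-iPS, 3 of 9 members were called, Acta2 and Myh11 higher and Des lower, where 20.0% of all probes tested were called. The median difference of the 9 members was 0.72 and that of all genes -0.06, and 8 of the 9 were above 0. Without 1 array at a time this median lay between 0.51 and 0.87. Between iHAC1-iPS and iHAC-free iPS, 1 of 9 members, Des, was called and was lower, where 20.1% of all probes were called, and the median member difference was 0.11, with a range from -0.0539 (without 1-D6) to 0.30 (without 1-B) when 1 array was left out. Between iHAC1-iPS and ES cells no member was called, where 14.3% of all probes were, and Actg2 and Myh11 had an unadjusted p under 0.05 (2 of 9). With 9 members, a count of 1 or 0 gives no sign that the set was called more often than other probes.

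Between iHAC2-iPS and ES cells, 1 of 9 members, Des, was called and was higher, where 6.80% of all probes were called, and the median member difference was -0.10, with a range from -0.32 (without B6ES) to 0.13 (without TT2) when 1 array was left out. Between iHAC-free iPS and ES cells no member was called by limma, where 0.363% of all probes were called, and at an unadjusted p under 0.05 there were 2, Myh11 and Des. For iHAC2-iPS set against iHAC-free iPS no member was called, where 0.815% of all probes were called, 1 member, Myh11, had an unadjusted p under 0.05, and the median member difference was -0.29, with a range from -0.54 (without 2-B1) to -0.0016 (without 2-N) when 1 array was left out. With the slide as a block, which leaves 1-D6 as the only iHAC1-iPS clone set against ES cells on its slide, the median member difference between iHAC1-iPS and ES cells was 1.07. Without the block it was 0.29, and it ranged from -0.0825 (without B6ES) to 0.67 (without TT2) when 1 array was left out. With the block Actg2 was called with a difference of 1.26 and an adjusted p of 0.0457 (limma, Benjamini-Hochberg).

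**Figure D2:**
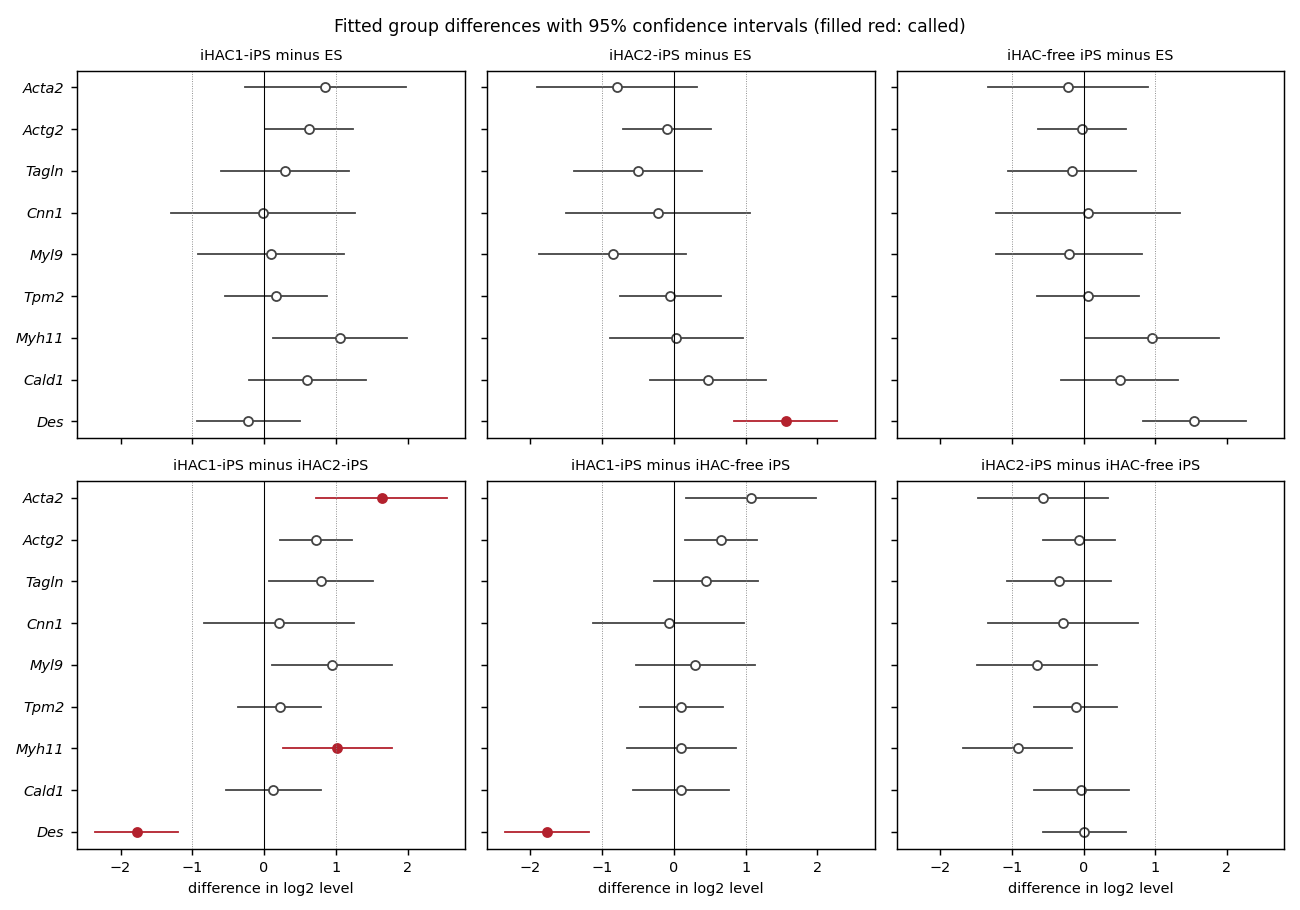
Fitted difference in log2 level of the 9 genes (y axis) in the 6 group comparisons (x axis, first group minus second), with 95% confidence intervals from limma. Filled red points were called, which are Des in 3 panels and Acta2 and Myh11 in the panel of iHAC1-iPS minus iHAC2-iPS, and dotted lines mark a 2-fold difference.

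Single arrays reached larger differences than the group means, and as 1 array each they carry no test. In MEF, 7 of the 9 members were at least 2-fold above the ES mean, where 21.7% of all probes tested were, with Des at 15.5-fold, Myh11 at 11.6-fold, Cald1 at 4.81-fold and Acta2 at 4.72-fold. The exceptions were Tpm2 at 1.76-fold and Cnn1 at 1.06-fold. In 20D17, 9 of 9 members were at least 2-fold above the ES mean, where 6.75% of all probes were. The median of the 9 members was 1.35 there and that of all genes -0.04. In 1-D6, 6 of 9 were at least 2-fold above the ES mean, where 13.8% of all probes were, and its Des was 0.59 below it. The ES lines themselves differed, with TT2 above B6ES in 9 of 9 members by a median of 0.71, where the median of all genes was -0.07. Differences from ES cells therefore rest on a mean of unlike lines.

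Of 28 striated muscle genes tested, 27 were well above background in MEF, 24 in 20D17, and 20 on every array of the ES group, 18 of iHAC1-iPS, 13 of iHAC2-iPS and 20 of iHAC-free iPS. Between iHAC1-iPS and ES cells 2 of the 28 rose and 8 fell, where 14.3% of all probes were called. Between iHAC1-iPS and iHAC2-iPS 3 rose and 9 fell, where 20.0% of all probes were called, with a median difference of -0.40 in the latter comparison. The early muscle regulators Myog and Myod1 were at 4.52 and -0.01 in MEF. They were at -7.76 to -5.44 and -6.79 to -4.91 on the other 15 arrays. Ttn, which encodes titin, was at 0.26 in MEF and at -4.55 to -3.46 elsewhere. Some other genes of the list did not follow this order. Myl3 was lowest in MEF (-2.09), and Myf6, well above background on 1 array only, was at -7.78 in MEF. Myh1 and Myh2 were at 0.03 and 1.98 in 1-D6 and at -1.12 and -4.35 in MEF. Des is shared with striated muscle, and the part of muscle cells in its MEF level was not tested.

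Clones carrying iHAC2 could be set against their own derivatives without it. Acta2 was higher in the iHAC-free line than in its parent in 4 of 4 pairs, by 0.39 to 0.74, Myl9 in 4 of 4 pairs, by 0.36 to 1.04, and Myh11 in 4 of 4 pairs, by 0.38 (F-E4 against 2-E) to 1.73 (F-N7 against 2-N). The other 6 members were higher in some pairs and lower in others. Des was higher in 2 of 4 pairs, by -0.41 to 0.60. The line 2-N, lowest of all arrays in 7 of the 9 members, showed the largest rise in Myh11. Slides 3 and 4 each held 2 such pairs, and the difference of iHAC2-iPS minus iHAC-free iPS within them was -0.72 and -0.41 for Acta2 and -1.22 and -0.61 for Myh11. No member passed in this comparison, with or without the line of origin as a block.

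**Figure D3:**
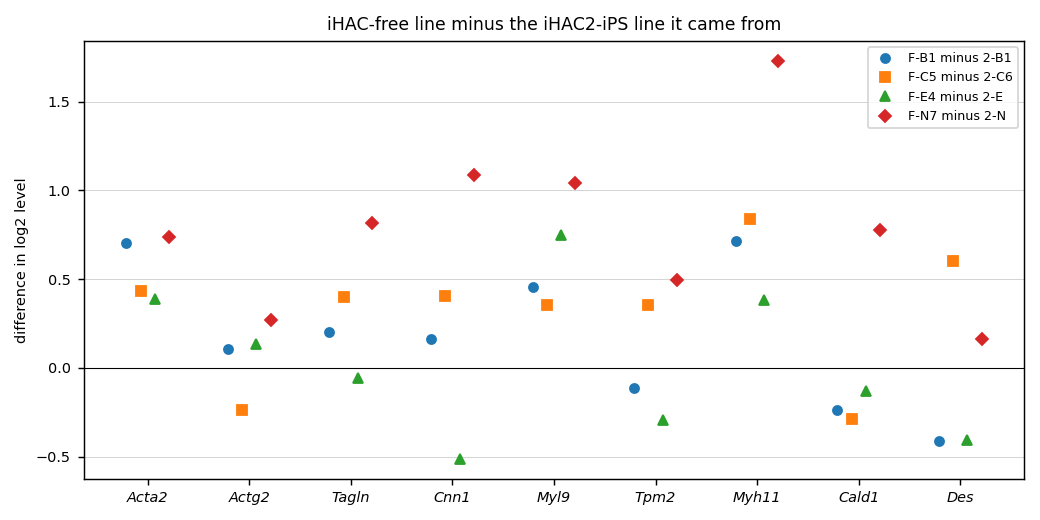
Difference in log2 level between each iHAC-free iPS line and the iHAC2-iPS line it came from (y axis) for the 9 genes (x axis). Each symbol is 1 pair of lines, and all 4 pairs lie above 0 for Acta2, Myl9 and Myh11, while Des lies on both sides of 0.

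Across arrays the members other than Des rose and fell together, as a description over arrays that share groups, slides and clones of origin. The 28 pairs of these 8 genes had Pearson correlations of 0.50 to 0.98 over 16 arrays, with a median of 0.83, and without MEF the median was 0.80. Without MEF, 20D17 and 1-D6 the median was 0.66 (13 arrays). The pairs of Des with the other 8 had a median of 0.13 over 16 arrays and of -0.23 without MEF. By the mean level of the 8 genes the arrays ran from MEF (4.40), 20D17 (4.08), 1-D6 (3.94) and 1-A3 (3.32) to B6ES (2.34) and 2-N (1.77), and the 10 arrays between them lay from 2.45 to 3.23.

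Markers of fibroblasts moved with the same arrays. All 20 fibroblast markers, collagens and Pdgfrb among them, were well above background in MEF, 20D17, every iHAC1-iPS clone and every iHAC-free iPS line, and 19 of 20 on every array of the ES and of the iHAC2-iPS group. Their summed level was 8.88 (log2) in MEF, 6.85 to 8.22 in ES cells, 8.92 in 20D17, 8.43 to 9.47 in iHAC1-iPS, 7.35 to 8.75 in iHAC2-iPS and 8.11 to 8.72 in iHAC-free iPS. B6ES and 2-N were lowest both in these and in the 8 members, and 1-D6 had the highest fibroblast sum. The mean of the 8 members had a correlation of 0.77 with the mean of the fibroblast markers over 16 arrays, and of 0.71 without MEF. Over 16 arrays it was 0.65 with the pericyte, 0.56 with the striated muscle and 0.17 with the endothelial markers. With the pluripotency and epithelial markers it was -0.60 and -0.52. Without MEF these values were 0.41, 0.14, 0.09, -0.39 and -0.42, in the same order. Between iHAC1-iPS and ES cells 10 of the 20 fibroblast markers rose and none fell, where no member and 14.3% of all probes were called. Between iHAC1-iPS and iHAC2-iPS 6 rose and none fell, where 20.0% of all probes were called. The part of fibroblasts or feeder cells in the members' levels was not tested.

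**Figure D4:**
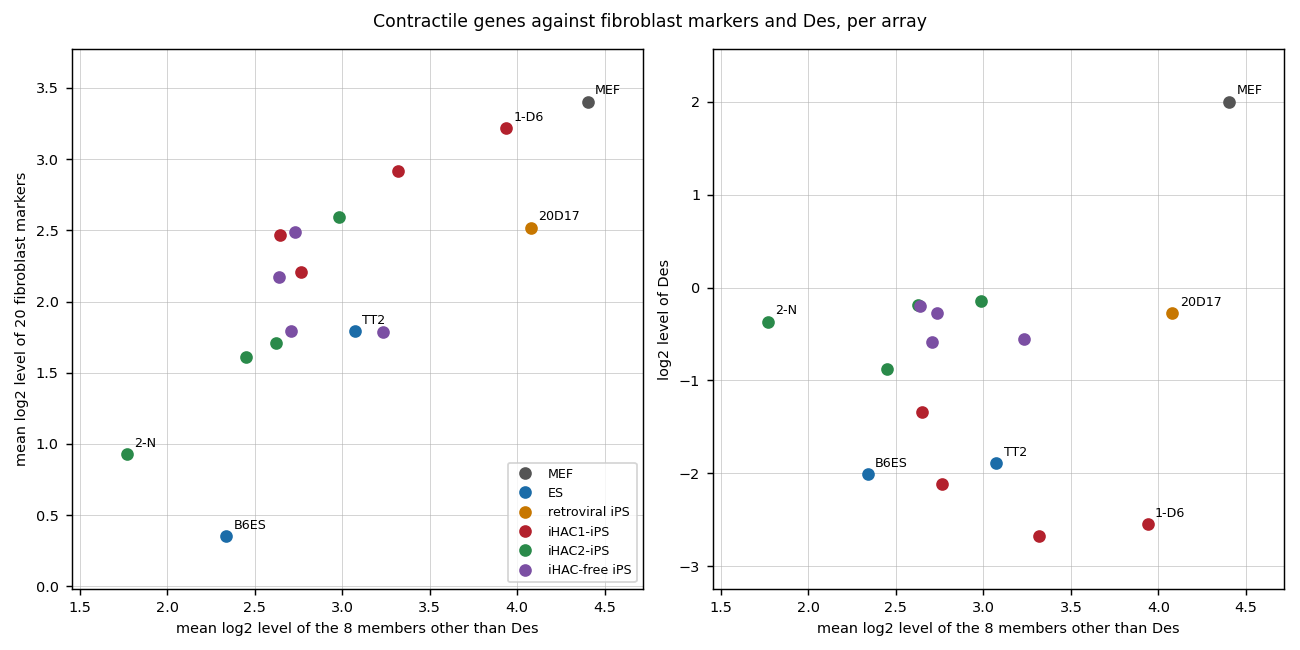
Mean log2 level of the 8 members other than Des (x axis of both panels) against the mean log2 level of 20 fibroblast markers (left) and the log2 level of Des (right), both scaled to the 75th percentile of the array. Each point is 1 array coloured by group, and the left panel rises from B6ES and 2-N to MEF, while in the right panel 1-D6 combines a high mean of the 8 genes with a low level of Des.

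Among the known regulators of the set, Srf, which encodes serum response factor, was at 2.71 in MEF and at 0.73 (2-N) to 2.11 (1-C3) elsewhere. Srf was 0.56 higher in iHAC1-iPS than in iHAC2-iPS, with an adjusted p of 0.0462 (limma, Benjamini-Hochberg), below 2-fold. Myocd, the myocardin gene, was well above background on 2 of 16 arrays and on none of the iHAC or iHAC-free arrays. Mkl1, a myocardin-related cofactor that is present in most cells, was at 4.03 in MEF and at 2.63 to 3.59 on the other arrays, and did not pass between iHAC1-iPS and iHAC2-iPS.

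Klf4, a reprogramming factor that also represses smooth muscle genes, fell relative to ES cells by 3.06 in iHAC1-iPS and by 2.33 in iHAC2-iPS, with adjusted p of 0.00313 and 0.0253 (limma, Benjamini-Hochberg). Its level was 4.97 in MEF, 5.06 in B6ES, 5.81 in TT2 and 5.46 to 6.03 in the iHAC-free iPS lines. How far the Klf4 probe reads the vector's Klf4 cDNA is not given in the sources used here. The part of Klf4 in the members' levels was not tested. The list of SRF regulators and cofactors also holds other transcription factors, such as Gata6, Prrx1, Zeb1 and Zeb2. Of its 22 genes tested, 3 rose and 3 fell between iHAC1-iPS and ES cells, where 14.3% of all probes were called. Between iHAC1-iPS and iHAC2-iPS 4 rose and 1 fell, where 20.0% of all probes were called, and Srf and Mkl1 were not among them. Zeb1 and Zeb2, which encode repressors of epithelial genes, rose in both comparisons, by 2.01 and 2.33 against iHAC2-iPS.

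Of 18 TGF-β pathway genes tested, 1 rose and 2 fell between iHAC1-iPS and ES cells, and 5 rose and 2 fell between iHAC1-iPS and iHAC2-iPS, beside the same shares of all probes. Tgfb1 itself did not pass in either. Smad3, a signal carrier of the pathway, rose in both, by 1.66 and 1.30, and Smad7, its inhibitor, fell in both, by 1.66 and 1.32. Of 27 other contractile genes, 3 rose and 1 fell between iHAC1-iPS and ES cells, and 3 rose and 3 fell between iHAC1-iPS and iHAC2-iPS, so that 4 and 6 of the 27 were called where 14.3% and 20.0% of all probes were. In the latter Mylk, the kinase that activates myosin light chains, rose by 1.50 and Tpm1, α-tropomyosin, by 1.03, while Ppp1r14a, an inhibitor of myosin phosphatase, fell by 1.23. The median differences of the SRF, TGF-β and other contractile lists there were 0.01, 0.73 and 0.12.

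Among the nonmuscle counterparts of the members, Actb, the main cytoskeletal actin, was at 6.07 in MEF and at 4.73 to 5.75 elsewhere, and Actg1 at 7.05 in MEF and at 6.38 to 7.08 elsewhere, and neither passed between iHAC1-iPS and iHAC2-iPS. Of the 16 paralogs tested, 4 rose and 1 fell in that comparison, where 20.0% of all probes were called. Those that rose included Tagln3, a relative of Tagln, by 2.68, Tpm4 by 1.10 and the intermediate filament gene Vim by 1.14, and the nonmuscle myosin gene Myh14 fell by 4.40. Other relatives of the members, Cnn2, Cnn3, Tagln2, Myl6, Tpm3, Myh9 and Myh10, were not called there.

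The genes with the pattern most like that of the members were sought among 21190 candidates by Pearson correlation over the 16 arrays. Most like Acta2 were Actc1 (cardiac actin, r = 0.99), Fads3 (0.98), Prss23 (0.97), Cspg4 (0.95) and Acta1 (skeletal muscle actin, 0.95). Actc1 was at 5.07 in MEF, 3.81 in 20D17 and 4.26 in 1-D6 against 1.71 in B6ES and 1.14 in 2-N, and it rose by 1.65 between iHAC2-iPS and iHAC1-iPS with an adjusted p of 0.00712 (limma, Benjamini-Hochberg). Actc1 is from the striated muscle list, in which more genes fell than rose in that comparison. As with the members, what the probes of Actc1 and Acta1 take from other actins cannot be told apart. Most like the mean of the 9 members, each scaled to unit variance, were Surf4, Osbpl5, Hoxb2, Hoxb9 and Acta1, with r between 0.95 and 0.96.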

How the data were processed

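RNA of 16 samples was hybridized by the authors, 1 sample an array, to a 1-colour (Cy3) Agilent whole mouse genome design. The deposited scanner files, made with Feature Extraction 10.7.1.1 and 10.7.3.1 per the file headers, give spot intensity with local background subtracted and no scaling between arrays. The authors normalized with GeneSpring GX, and their deposited value table holds log2 values whose settings are not given in the sources used here. Its columns had medians of -0.325 to 0.279 and matched differences of the scanner values with slopes of 1.00, so it was an alternative.

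Here outlier and control spots were left out, spots of a probe were averaged, and log2 was taken minus the array's 75th percentile. Probes well above background on at least 1 array (31415 of 41174) entered 1 limma fit (lmFit, eBayes) of 16 arrays in 6 groups, with Benjamini-Hochberg adjustment. Clones and lines are the replicates, and their number limits the precision. A gene's probe was the one with the highest mean. Members, gene lists and tests were chosen with earlier results of these data known. All members were named, and of the lists the called genes and a set of regulators and paralogs, of which a selection is given. For the genes most alike, the 5 with the highest correlation were taken.

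There were 10 lists beside the members. They held SRF regulators with other transcription factors, TGF-β pathway, other contractile genes, paralogs, striated muscle, fibroblast, pericyte, endothelium, epithelium and pluripotency markers. For the pericyte and endothelial lists, of 7 pericyte genes 2 rose and of 8 endothelial genes 2 fell between iHAC1-iPS and iHAC2-iPS. In that comparison 20.0% of all probes were called, so these counts lie near the share of all probes. On simulated data with 200 changed probes of 31387, the fit recovered 75.5% for iHAC1-iPS against ES cells and 82.0% for iHAC1-iPS against iHAC2-iPS. These shares hold for the changes put into those data, each larger than any group difference of a member in the fit of all arrays. Recovery at the size of the members' differences was not tested.

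The iHAC-free iPS lines derive from the iHAC2-iPS clones, so the labels pair them by line. The deviations from group means had correlations of -0.219 to 0.0799 for those pairs and -0.105 to 0.216 for others, and a fit blocked on parent line was an alternative. Further alternatives were normexp (offset 50), quantile normalization, the value table, no filter or a strict one, slide as a block (a fixed term where a slide held both groups, otherwise random by duplicateCorrelation), a fit of the compared groups alone, the mean of all probes of a gene, and leaving out each array. The random slide block had a within-slide correlation of -0.1185. It cannot take out a difference between slides that hold different groups. R 4.3.3, limma 3.58.1, Python 3.11.15, numpy 2.4.6, pandas 2.3.3 and matplotlib 3.10.9 were used. Positions are those of the files (mm9), and promoters are RefSeq's (GRCm38.p6). No genome was used here.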

Additional observations from a re-analysis of the deposited data

Results flagged for a closer look

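In 33 groups of 4 values (9 genes and 2 means in each of 3 iPS groups), the highest and the lowest were compared with the nearest other value, and chance marks about 1 in 20 groups, or 1.65 of 33. A pair of values stood apart by Dixon's limit for 4 samples. The level of Tpm2 in 1-D6 was 4.97, while the other iHAC1-iPS clones lay between 3.90 and 4.08. The mean level of the 9 members in F-B1 was 2.81, while the other iHAC-free iPS lines lay between 2.32 and 2.40.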

How the results depend on the processing

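The differences of the 9 members kept their sign under the settings and left-out arrays not named here, and those that turned had not passed in the first place. For genes of the other lists, values under other settings were not compared. With the slide as a block 1 member was called between iHAC1-iPS and ES cells (Actg2) with a median member difference of 1.07, and 1 (Des) between iHAC-free iPS and ES cells, where normexp background correction and the strict filter on dim probes also called 1. In a fit of the compared groups alone 0 members were called between iHAC2-iPS and ES cells. Normexp and the strict filter called 2 members between iHAC1-iPS and iHAC-free iPS, Acta2 and Des. The sign turned for Cnn1 between iHAC1-iPS and ES cells with quantile normalization (0.0497) and the slide block (0.90), for Tpm2 (0.0381) and Myh11 (-0.0512) between iHAC2-iPS and ES cells with quantile normalization, for Myh11 there with the slide block (-0.0244), and for Cald1 between iHAC1-iPS and iHAC-free iPS with the mean of all its probes (-0.018). Between iHAC-free iPS and ES cells it turned for Actg2 with normexp (0.0434) and quantile normalization (0.0785), for Tagln with quantile normalization (0.0067), and for Cnn1 (-0.0494) and Tpm2 (-0.0314) with the slide block. The cause was not tested.

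Without 1 array at a time, the members called ranged from 1 to 2 between iHAC1-iPS and iHAC-free iPS (2 without 1-B, 1-C3 or F-B1), from 0 to 1 between iHAC2-iPS and ES cells (0 without B6ES or TT2) and from 2 to 4 between iHAC1-iPS and iHAC2-iPS, and were 0 elsewhere. The median member difference turned without B6ES between iHAC1-iPS and ES cells (-0.0825), without TT2 (0.13) or 2-N between iHAC2-iPS and ES cells, without 1-D6 between iHAC1-iPS and iHAC-free iPS (-0.0539), and, from 0.0621 between iHAC-free iPS and ES cells, without B6ES (-0.25) or F-B1 (-0.10) and with the slide block (-0.0494). Of 54 member differences, 29 changed sign in at least 1 such fit, none of them called, with these lowest and highest values. Between iHAC1-iPS and ES cells the range was, for Tagln -0.09 to 0.67, Cnn1 -0.36 to 0.35, Myl9 -0.40 to 0.59 and Tpm2 -0.0825 to 0.42. Between iHAC2-iPS and ES cells the range was, for Actg2 -0.32 to 0.12, Cnn1 -0.58 to 0.18, Tpm2 -0.30 to 0.20, Myh11 -0.17 to 0.37 and Cald1 -0.0688 to 1.02. Between iHAC-free iPS and ES cells the range was, for Acta2 -0.71 to 0.27, Actg2 -0.25 to 0.19, Tagln -0.54 to 0.22, Cnn1 -0.29 to 0.42, Myl9 -0.70 to 0.29, Tpm2 -0.19 to 0.31 and Cald1 -0.0387 to 1.05. Between iHAC1-iPS and iHAC2-iPS the range was, for Cnn1 -0.18 to 0.49, Tpm2 -0.0314 to 0.37 and Cald1 -0.15 to 0.28. Between iHAC1-iPS and iHAC-free iPS the range was, for Cnn1 -0.38 to 0.17, Myl9 -0.02 to 0.48, Tpm2 -0.14 to 0.22, Myh11 -0.0763 to 0.30 and Cald1 -0.0539 to 0.22. Between iHAC2-iPS and iHAC-free iPS the range was, for Actg2 -0.13 to 0.0062, Cnn1 -0.57 to 0.11, Tpm2 -0.26 to 0.016, Cald1 -0.18 to 0.25 and Des -0.0724 to 0.17.

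The labels pair each iHAC-free iPS line with its clone of origin, and with the line as a replicate block 0 members were called between them, the median member difference stayed at -0.29, and the block changed no call. Each replicated group has 2 to 4 arrays, which limits the precision, and the ES group has 2 unlike lines. When 1 ES line is left out, the other is assumed to vary like the other groups.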
